A study of Mus musculus with 12 samples.

Results

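The genes described here are 121 genes of MLO-Y4 cells whose mean level on the 2-g arrays was lower than the mean of each of the other 3 groups by 0.30 or more on the log2 scale. They were selected on these measured values from 19938 genes with 1 symbol, of which 11093 had a mean above 7 over all arrays and could be chosen. Chemokines, their receptors, matrix metalloproteinases and a set of named inflammatory and other genes were left out by name, which took away 12 genes (Arg2, Ccl3, Clec4e, Csf3, Ctsk, Cxcl10, Cxcl9, Gpr84, Il1rn, Mmp9, Socs2 and Tnf). Since the values on the 2-g arrays chose the genes, the differences between 2-g and the other groups are given as a description, with no test. The chosen genes enter tests of 2-g only within counts over all genes, lists of cell type markers, and counts marked as including them.

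MLO-Y4 is an osteocyte-like line from mouse long bone. Its cells were placed for 48 h at 1 of the 3 positions in the bore of a superconducting magnet, which give an apparent gravity of 2-g, μ-g or 1-g, or were kept outside the magnet at normal gravity as the control. The stated medium, temperature and CO2 were the same for all 4 groups. The magnet had its own temperature and gas control, so apparatus and field cannot be told apart where magnet groups are compared with control. Each group gave 3 Affymetrix Mouse Gene 1.0 ST arrays, 12 in all, whose number limits the precision. The positions differ in magnetic field as well as in apparent gravity: 2-g and μ-g share 1 field strength, the field at 1-g is stronger, and the control has only that of the earth. Field and gravity therefore cannot be told apart where 2-g or μ-g is compared with control or 1-g. The line is a model of 1 immortalised clone. Of 14 measured osteocyte and osteoblast markers 7 were above 7 (log2, mean of all arrays). Pdpn and Gja1 were bright at 12.22 and 12.12, and Alpl and Col1a1 stood at 10.91 and 9.99. Sost was dim at 7.30, and Dmp1, Phex and Mepe were low at 5.63, 5.43 and 5.11. Whether the 3 arrays of a group stand for separate cultures is not stated, although the labels name them biological replicates, so their spread may be technical.

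Ribosomes are built in the nucleolus, where RNA polymerase I copies ribosomal DNA and a large set of snoRNPs, helicases, methyltransferases and assembly factors cuts, modifies and folds the transcript into the small and the large subunit. Growing cells couple this work to the import of amino acids through solute carriers, to tRNA charging and to polyamine synthesis. The cystine carrier Slc7a11 feeds glutathione synthesis and works beside the thioredoxin system. The 121 genes were sorted by known role into 9 groups, after their values were seen. The largest held 29 genes of ribosome biogenesis and rRNA processing, followed by 17 metabolic enzymes, 17 genes of membrane traffic, cytoskeleton and other roles, 16 carriers and channels, 14 genes of transcription, chromatin and cell cycle, 10 myeloid and innate immune genes, 8 genes of tRNA and translation, 6 mitochondrial proteins and 4 reductases and selenium genes.

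The differences were small. The margin, which is the lowest of the 3 other group means minus the 2-g mean, had a median of 0.36 (1.28-fold) and ran up to 0.94 (1.92-fold). It was 0.50 or more in 8 genes, 0.40 or more in 34 and under 0.32 in 32. Just inside the limit stood Kcnk10 (10.08 in 2-g and 10.38 in the next group, margin 0.3022), Slc7a1 (10.71 in 2-g and 11.01 in the next group, margin 0.3014) and Utp15 (8.98 in 2-g and 9.28 in the next group, margin 0.3008). Just outside stood Tmem154 (8.98 in 2-g and 9.28 in the next group, margin 0.2995), Lyar (8.85 in 2-g and 9.14 in the next group, margin 0.2994) and Usp36 (9.28 in 2-g and 9.58 in the next group, margin 0.2994). Another 99 genes had margins between 0.25 and 0.30. Without the first 2-g array the same rule took 210 genes, 115 of them among the 121. Without the second 2-g array it took 96 genes, only 69 of them among the 121. With group medians in place of means it took 132, 90 of them among the 121.

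The median difference was -0.39 in 2-g v.s. μ-g, -0.39 in 2-g v.s. 1-g and -0.40 in 2-g v.s. control. The next lowest group was 1-g in 46 genes, control in 41 and μ-g in 34. In 89 of the 121 genes all 3 2-g arrays lay below the 9 others, against 6.29% of the genes above 7, a share that the rule itself raises. When arrays of the same replicate number were compared, 2-g was below each other group in all 9 differences in 120 of the 121 genes, against 15.3% of the genes above 7. The exception was AA467197, whose first 2-g array was at 8.81 and first μ-g array at 8.78. The same rule turned to another group found 2 genes lowest in μ-g, 1 in 1-g and 40 in control, and 210 genes were higher in 2-g than in each other group by the same limit.

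**Figure D1:**
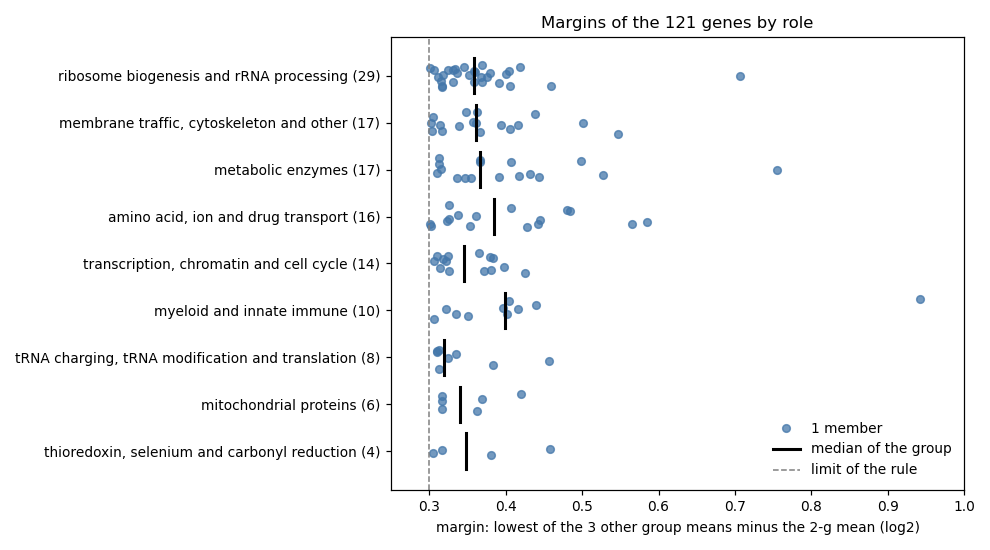
Margin of each of the 121 genes (x axis, lowest of the 3 other group means minus the 2-g mean, log2) by role group (y axis, number of genes in brackets). Points are genes, bars are group medians from 0.32 in tRNA and translation to 0.40 in the myeloid genes, and the dashed line is the limit of 0.30. Gpnmb, Nat8f5 and Rpp40 stand apart above 0.7.

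Ribosome biogenesis held the most genes. Its 29 genes had margins of 0.30 to 0.71 with a median of 0.36, and in 28 of them, all but Spata5, the 2-g arrays lay below every other array. The same was true of 89 of the 121 genes and of 6.29% of the genes above 7, and the rule itself raises such counts. The median SD of the 29 genes within the 2-g group was 0.10, against 0.13 over the 121 genes. In the bulk RNA of a culture, fewer cells of a type and less RNA per cell cannot be told apart.

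Rpp40, a protein subunit of RNase P and RNase MRP, which cut tRNA and rRNA precursors, had the largest margin of this group. The 2-g arrays gave 7.32, 7.25 and 7.18 for Rpp40, where the μ-g arrays gave 8.01, 7.93 and 7.93, the 1-g arrays 8.10, 8.11 and 7.87 and the control arrays 8.09, 7.96 and 8.35. The 2-g arrays lay within 0.14 of each other and at least 0.55 below the lowest other array. The log2 signals of Pinx1 were 9.22, 9.05 and 9.11 in 2-g, 9.70, 9.58 and 9.53 in μ-g, 9.63, 9.67 and 9.46 in 1-g and 9.71, 9.68 and 9.75 in control. Pinx1 is a nucleolar protein that binds telomerase, and its 2-g arrays did not overlap with those of any other group.

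The other genes of the group act at several steps of the pathway. Polr1b, the second largest subunit of RNA polymerase I, averaged 9.84 ± 0.07 in 2-g, 10.21 ± 0.09 in μ-g, 10.19 ± 0.06 in 1-g and 10.24 ± 0.18 in control (SD, n = 3 each). Tcof1, the treacle protein that promotes rDNA transcription, and Ddx21, a nucleolar helicase, had margins of 0.36 and 0.31. The early small-subunit complex was represented by Pwp2, Utp18, Utp15, Nol6, Nop14, Rcl1, Heatr1, the homologue of yeast UTP10, and Rrp9 of the U3 snoRNP, with margins of 0.30 to 0.42. Dkc1, the pseudouridine synthase of H/ACA snoRNPs, averaged 9.88 ± 0.02 in 2-g, 10.34 ± 0.14 in μ-g, 10.25 ± 0.06 in 1-g and 10.25 ± 0.05 in control. Late small-subunit factors were Pno1, Ltv1, Bysl, Tsr1 and Rrp12, with margins of 0.32 to 0.41. Wdr12, a partner of Pes1 and Bop1 in large-subunit assembly, averaged 9.70 ± 0.12 in 2-g, 10.10 ± 0.02 in μ-g, 10.13 ± 0.19 in 1-g and 10.14 ± 0.04 in control. The large subunit was also represented by Mak16, Noc3l, Gtpbp4, Tex10, the rRNA methyltransferase Ftsj3 and the ATPase Spata5, with margins of 0.31 to 0.37. Exosc1 of the RNA exosome, Nol10 and Ccdc86, both nucleolar proteins, had margins of 0.34, 0.33 and 0.31.

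A wider list of 143 measured ribosome biogenesis genes is given as a description. It was drawn up after the 121 genes had been seen, as were the lists of amino acid carriers, tRNA synthetases, thioredoxin and NRF2 genes and the MYC network below. Of the 143 genes 27 are among the 121 and were chosen in part on 2-g v.s. control, so only the other 116 were counted in that test. Of these, 112 were below 0 in 2-g v.s. control, with a median of -0.22, where the median of all genes was -0.0028. In the limma fit over all genes 25 of the 116 fell and none rose at adjusted p under 0.05, against 1.43% of all genes lower and 1.68% higher. The largest falls among these 25 were those of Exosc5, Mrto4 and Noc4l. The mean of Exosc5 was 9.75 in 2-g and 10.19 in control (-0.44 ± 0.09, limma, adjusted p = 0.03). Mrto4 averaged 9.49 in 2-g and 9.89 in control, a difference of -0.40 ± 0.09 (SE, limma, adjusted p = 0.0365). The mean of Noc4l was 10.05 in 2-g and 10.45 in control (-0.39 ± 0.05, limma, adjusted p = 0.00316). Exosc5 is a subunit of the RNA exosome, Mrto4 acts in the large subunit and Noc4l in the small subunit. None of the 116 passed the test in μ-g v.s. control (11 lower and 6 higher at an unadjusted p under 0.05), 1-g v.s. control (7 lower and 1 higher) or μ-g v.s. 1-g (none), where the medians were -0.03, -0.05 and 0.0040. With the replicate number as a block 54 fell and none rose in 2-g v.s. control, against 4.32% of all genes lower and 5.06% higher in that fit. The block gave 3 higher and 2 lower in μ-g v.s. control (3.14% and 1.56% of all genes) and 1 lower in 1-g v.s. control (1.03% of all genes higher and 0.737% lower). Without the block the count in 2-g v.s. control was 6, 4, 4 and 4 without the second 2-g array, the third 2-g array, the first control array and the third control array.

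**Figure D2:**
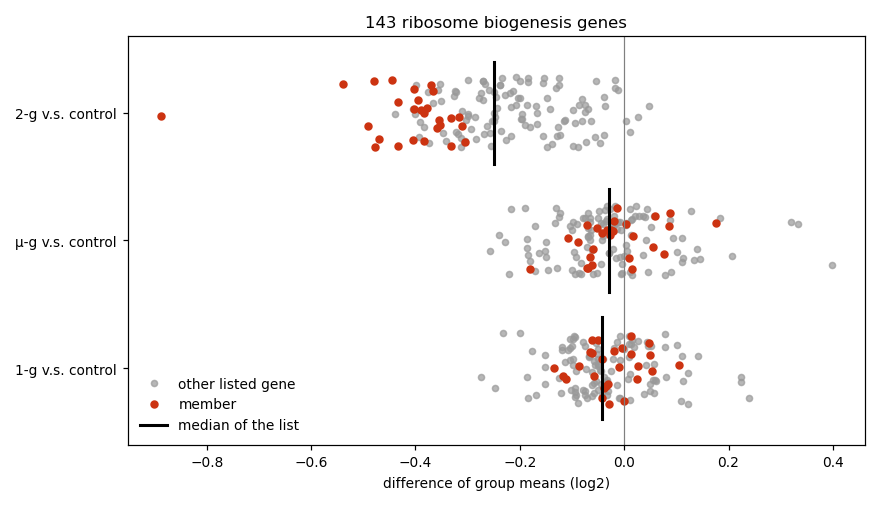
Difference of group means (x axis, log2) for 143 ribosome biogenesis genes in 2-g, μ-g and 1-g, each v.s. control. Points are genes, red where they are among the 121, and bars are medians of the list: -0.25 in 2-g, -0.03 in μ-g and -0.04 in 1-g v.s. control. The 3 comparisons share the control arrays.

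Carriers and channels had larger spreads within groups. Their 16 genes had margins of 0.30 to 0.58 with a median of 0.38, and all 16 were lower in 2-g in each of the 9 same-numbered differences. In only 6 did the 2-g arrays lie below every other array, against 89 of the 121 genes and 6.29% of the genes above 7. In 10 of the 16 genes (62.5%) replicate 2 was the lowest array of all 4 groups, against 25.6% of the 121 genes and 7.61% of the genes above 7, and the same held for 3 of the 4 reductases and selenium genes (75%). Replicate 2 lay below the mean of replicates 1 and 3 by a median of 0.31 in this group (swing of -0.31), by 0.08 in ribosome biogenesis (-0.08) and by 0.15 in the myeloid genes (-0.15). Over the 121 genes, deviations from the group mean correlated between same-numbered arrays at r = 0.38 to 0.81, across genes, which are not independent replicates. What a replicate number stands for is not stated.

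Slc4a10, a sodium-driven bicarbonate carrier, had the largest margin of the carriers. Slc4a10 was at 7.15, 6.66 and 7.17 on the 2-g arrays, against 7.96, 7.43 and 7.89 on the μ-g arrays, 7.63, 7.47 and 7.66 on the 1-g arrays and 7.67, 7.22 and 7.84 on the control arrays. The second array was the lowest of each group, and the lowest array outside 2-g was only 0.04 above the highest 2-g array. The 2-g arrays gave 10.19, 9.56 and 10.07 for Slc7a11, where the μ-g arrays gave 11.12, 9.98 and 10.75, the 1-g arrays 10.88, 10.16 and 10.48 and the control arrays 11.09, 10.09 and 10.67. Slc7a11 is the exchanger that brings in cystine for glutamate, and the second arrays of μ-g, 1-g and control lay below the first 2-g array, so the groups overlapped although each same-numbered difference was lower.

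Slc7a3 and Slc7a1 import arginine and lysine. The log2 signals of Slc7a3 were 9.98, 8.98 and 9.81 in 2-g, 10.72, 9.90 and 10.54 in μ-g, 10.70, 10.02 and 10.42 in 1-g and 10.32, 9.46 and 10.44 in control. The second 2-g array was the lowest of all 12 at 8.98. Slc7a1 averaged 10.71 ± 0.36 in 2-g, 11.03 ± 0.32 in μ-g, 11.01 ± 0.25 in 1-g and 11.04 ± 0.31 in control. Slc38a7, a lysosomal glutamine carrier, had its second array lowest in every group too. Slc38a7 was at 9.43, 9.09 and 9.38 on the 2-g arrays, against 9.997, 9.41 and 9.85 on the μ-g arrays, 10.05, 9.57 and 9.83 on the 1-g arrays and 9.91, 9.43 and 9.90 on the control arrays. The neutral amino acid carriers Slc1a5 and Slc7a5 had margins of 0.41 and 0.33, the lysosomal peptide and histidine carrier Slc15a3 of 0.43, the creatine carrier Slc6a8 of 0.32 and the phosphate carrier Slc20a2 of 0.33.

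Tfrc, the transferrin receptor of iron uptake, was lower on each 2-g array than on any other array. The 2-g arrays gave 9.82, 9.57 and 9.74 for Tfrc, where the μ-g arrays gave 10.82, 10.03 and 10.39, the 1-g arrays 10.58, 10.24 and 10.16 and the control arrays 10.34, 9.91 and 10.32. The spread of the μ-g arrays was the widest, with an SD of 0.40. Abcb1a, the drug exporter P-glycoprotein, averaged 10.56 ± 0.20 in 2-g, 11.13 ± 0.27 in μ-g, 11.004 ± 0.13 in 1-g and 11.05 ± 0.18 in control. The proton channel Hvcn1, the volume-regulated anion channel subunit Lrrc8d, the V-ATPase subunit Atp6v0e2 and the background potassium channel Kcnk10 had margins of 0.36, 0.35, 0.34 and 0.30.

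**Figure D3:**
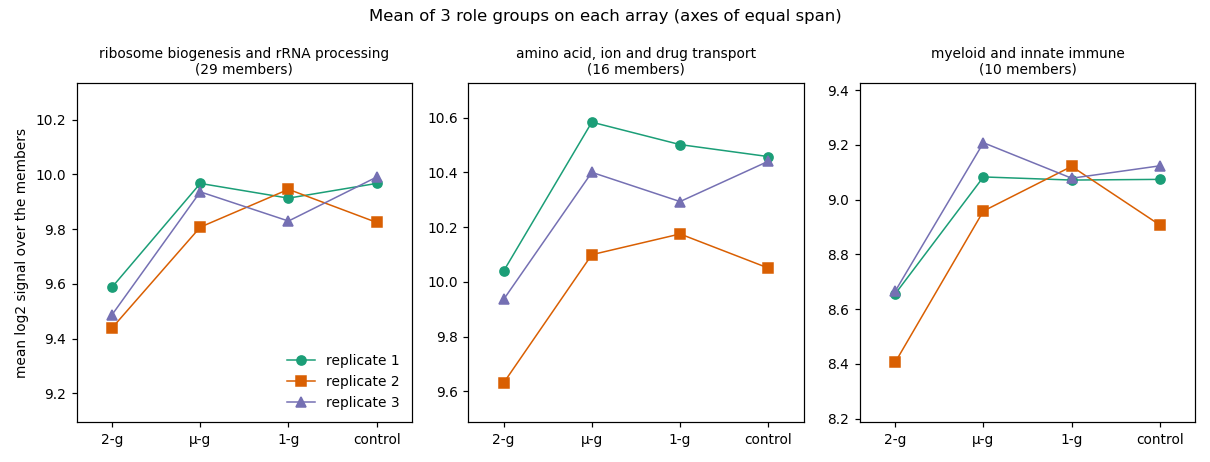
Mean log2 signal over the genes of 3 role groups (y axes of equal span) on each array by group (x axis), with lines joining arrays of the same replicate number. The 2-g arrays lie below all others in ribosome biogenesis (9.44 to 9.59 in 2-g, 9.81 to 9.99 in the other groups) and the myeloid genes (8.41 to 8.67 in 2-g, 8.91 to 9.21 in the other groups). In the carriers they also lie below all others, but narrowly (highest 2-g array 10.04, lowest other array 10.05). There replicate 2 is the lowest in every group, at 9.63 in 2-g, 10.10 in μ-g, 10.18 in 1-g and 10.05 in control.

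Of 23 other amino acid carriers 15 were below 0 in 2-g v.s. control, with a median of -0.015. None passed the limma test (4 lower and 1 higher at an unadjusted p under 0.05), while 3 fell and 1 rose with the replicate block. In the block fit 4.32% of all genes were lower and 5.06% higher. The list of the amino acid response, the genes that cells switch on through Atf4 when amino acids are short, had 25 measured genes outside the 121. Of these 22 were below 0, with a median of -0.17, and none passed the limma test (12 lower and 1 higher at an unadjusted p under 0.05), while 10 fell and none rose with the replicate block.

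The 8 genes of tRNA and translation had margins of 0.31 to 0.46. Dus4l, a dihydrouridine synthase of tRNA, led them. The log2 signals of Dus4l were 9.22, 8.87 and 8.85 in 2-g, 9.51, 9.30 and 9.50 in μ-g, 9.57, 9.47 and 9.40 in 1-g and 9.65, 9.30 and 9.46 in control. Its highest 2-g array was 0.08 below the lowest other array. The tRNA methyltransferase subunit Trmt61a, the mitochondrial arginyl-tRNA synthetase Rars2, the pseudouridine synthase Pus7l, the acetyltransferase subunit Naa25 and Eif2b3, a subunit of the exchange factor that recharges the initiation factor eIF2, had margins of 0.38, 0.34, 0.31, 0.32 and 0.31. Lars and Wars, the cytosolic leucyl- and tryptophanyl-tRNA synthetases, each had a margin of 0.31. The 16 other measured cytosolic tRNA synthetases were all below 0 in 2-g v.s. control, with a median of -0.13, and none passed the limma test (6 lower and none higher at an unadjusted p under 0.05), while 2 fell with the replicate block.

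Sephs2, which makes the selenium donor for selenoproteins, led the 4 reductases and selenium genes. Sephs2 was at 9.71, 9.53 and 9.61 on the 2-g arrays, against 10.19, 9.84 and 10.19 on the μ-g arrays, 10.22, 9.998 and 10.06 on the 1-g arrays and 10.20, 10.11 and 10.27 on the control arrays. The 3 2-g arrays lay below the 9 others. Txnrd1, the selenoprotein that reduces thioredoxin, averaged 11.02 ± 0.09 in 2-g, 11.49 ± 0.12 in μ-g, 11.40 ± 0.02 in 1-g and 11.40 ± 0.07 in control. Srxn1, which repairs peroxiredoxins, averaged 11.19 ± 0.04 in 2-g, 11.50 ± 0.05 in μ-g, 11.52 ± 0.06 in 1-g and 11.54 ± 0.11 in control. The carbonyl reductase Cbr3 had a margin of 0.32. Of 29 other measured thioredoxin, glutathione and NRF2 genes 5 fell and none rose in 2-g v.s. control, against 1.43% of all genes lower, and 6 fell and 1 rose with the replicate block. Nqo1 averaged 11.32 in 2-g and 11.74 in control, a difference of -0.42 ± 0.06 (SE, limma, adjusted p = 0.00395). Nqo1 is a quinone reductase. The others were Gclm and Gss of glutathione synthesis, the autophagy receptor Sqstm1 and Osgin1.

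The 10 myeloid and innate immune genes had margins of 0.31 to 0.94. Gpnmb, a transmembrane glycoprotein of macrophages, osteoclasts and osteoblasts, had the largest margin of all 121 genes. The 2-g arrays gave 8.43, 8.45 and 9.33 for Gpnmb, where the μ-g arrays gave 9.51, 9.41 and 10.28, the 1-g arrays 9.44, 9.61 and 10.22 and the control arrays 9.25, 9.48 and 10.31. The third array was the highest of each group, so the third 2-g array was above the first control array, while the same-numbered margins were all between 0.82 and 0.96. Tlr2, a receptor for bacterial lipoproteins, and Nlrp3, the sensor of an inflammasome, were on the list of innate receptors. Tlr2 averaged 8.88 ± 0.08 in 2-g, 9.30 ± 0.07 in μ-g, 9.28 ± 0.12 in 1-g and 9.28 ± 0.13 in control. Nlrp3, close to the level limit, averaged 6.84 ± 0.19 in 2-g, 7.27 ± 0.07 in μ-g, 7.16 ± 0.15 in 1-g and 7.38 ± 0.20 in control. Cd68, a lysosomal glycoprotein of phagocytes, averaged 9.24 ± 0.15 in 2-g, 9.78 ± 0.19 in μ-g, 9.89 ± 0.09 in 1-g and 9.64 ± 0.19 in control. Tfec, a relative of Mitf, AA467197, the ubiquitin ligase Rnf125, Slfn2, the cytidine deaminase Apobec1 and the adhesion molecule Ceacam1 had margins of 0.44, 0.42, 0.40, 0.35, 0.33 and 0.31.

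Markers of other cell types were read beside these genes. Of 27 macrophage and monocyte markers 4 were above 7 (Cd68, Cd14, Lyz2 and Csf1r), and the mean of the list was 6.27 to 6.28 on the 2-g arrays, 6.30 to 6.39 on the μ-g arrays, 6.25 to 6.36 on the 1-g arrays and 6.32 to 6.33 on the control arrays. The defining markers Ptprc, Adgre1 and Itgam were low at 5.68, 5.46 and 5.87 over all arrays. Above 7 were 3 of 11 osteoclast, 1 of 11 mast cell, 4 of 9 adipocyte and 2 of 10 endothelial markers. Ctsk, the osteoclast collagenase cathepsin K and 1 of the genes left out by name, averaged 12.04 in 2-g, 12.61 in μ-g, 12.65 in 1-g and 12.54 in control. Mcpt8, a basophil protease, averaged 6.49 in 2-g, 6.96 in μ-g, 7.10 in 1-g and 7.28 in control, and fell in 2-g v.s. control by 0.80 (limma, adjusted p = 0.0222). Apart from Mcpt8 and Ctsk no marker on these 5 lists passed the test. Ctsk was chosen in part on 2-g v.s. control, so its call is not independent. The osteoclast list averaged 7.10 to 7.20 on the 2-g arrays and 7.26 to 7.29 on the μ-g arrays. It averaged 7.22 to 7.25 on the 1-g arrays and 7.18 to 7.24 on the control arrays. This mean includes Ctsk, and that of the macrophage list includes Cd68, both lower in 2-g by the rule. The part of other cells in the lower values of the myeloid genes was not tested.

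The 17 metabolic enzymes had margins of 0.31 to 0.75. Nat8f5, an N-acetyltransferase relative of Nat8, led them. The log2 signals of Nat8f5 were 8.07, 7.54 and 7.78 in 2-g, 8.86, 8.22 and 8.58 in μ-g, 8.80, 8.34 and 8.67 in 1-g and 9.08, 8.34 and 9.10 in control. The highest 2-g array was below the lowest of the other 9, by 0.14. Nat8, its paralog and neighbour on chromosome 6, had a margin of 0.35, and the 2 genes may share signal. Odc1, the first enzyme of polyamine synthesis, followed. Odc1 was at 11.29, 10.97 and 11.20 on the 2-g arrays, against 11.70, 11.56 and 11.78 on the μ-g arrays, 11.68, 11.76 and 11.65 on the 1-g arrays and 11.66, 11.59 and 11.80 on the control arrays. Its 2-g arrays did not overlap with the others, and a second transcript cluster of the gene had a margin of 0.47. The 2-g arrays gave 10.78, 10.57 and 10.62 for Gdpd1, where the μ-g arrays gave 11.20, 11.11 and 11.16, the 1-g arrays 11.23, 11.19 and 11.12 and the control arrays 11.14, 11.09 and 11.29. Gdpd1, a phosphodiesterase of glycerophospholipids, also had 2-g arrays below all others.

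The other enzymes act in many pathways. They were the epimerase Renbp, the histidine ammonia-lyase Hal, the endothelial lipase Lipg, the fatty acid elongase Elovl3, Comtd1, the glycosyltransferase Extl1, the monoamine oxidase Maoa, Mid1ip1, which promotes fatty acid synthesis, Uap1l1, the carboxypeptidase Cpm, the nucleoside diphosphate kinase Nme1, the folate enzyme Fpgs and the dipeptidase Cndp2, with margins of 0.31 to 0.44. Hal and Elovl3 lay close to the level limit, with means of 7.02 and 7.10 over all arrays and 6.65 and 6.75 in 2-g. A second cluster of Mid1ip1 did not show the difference, with a margin of -0.01.

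Of 17 other measured genes of the MYC network and polyamine synthesis 1 fell and 1 rose in 2-g v.s. control. Over all genes 1.43% were lower and 1.68% higher. The mean of Mxi1 was 9.67 in 2-g and 8.99 in control (0.67 ± 0.06, limma, adjusted p = 0.00161). Mxi1 competes with MYC for its partner MAX. The gene that fell was Sat1, which acetylates polyamines. With the replicate block 1 fell and 4 rose, against 4.32% of all genes lower and 5.06% higher.

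The 6 mitochondrial proteins had margins of 0.32 to 0.42. They were Chchd10 of the intermembrane space, the import chaperone Timm10, the assembly factors Ndufaf4, Tmem126a and Coa7 of the respiratory chain, and Ndufa4, a subunit of cytochrome c oxidase. In 5 of the 6, all but Chchd10, the 2-g arrays lay below every other array, against 89 of the 121 genes and 6.29% of the genes above 7.

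The 14 genes of transcription, chromatin and cell cycle had margins of 0.31 to 0.43. They were the F-box protein Fbxo31, the arginine methyltransferase Prmt7, the kinase Plk3, the checkpoint clamp subunit Rad9a, the inhibitor of basic helix-loop-helix factors Id3, Cenpv, the Hippo pathway factor Tead4, the RNA helicase Ddx39a, the deubiquitinase Usp10, the TFIID subunit Taf4b, the methyltransferase cofactor Coprs, the origin subunit Orc2, the chromatin remodeller Chd1l and Rcc1, the exchange factor of Ran. In 12 of the 14, all but Cenpv and Taf4b, the 2-g arrays lay below the others, against 89 of the 121 genes and 6.29% of the genes above 7.

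The last 17 genes share no role. Glrp1, a protein named for its glutamine repeats, had the largest margin of them. The log2 signals of Glrp1 were 9.51, 8.72 and 9.18 in 2-g, 9.99, 9.49 and 9.70 in μ-g, 10.04, 9.50 and 9.51 in 1-g and 10.22, 9.48 and 9.80 in control. Its first 2-g array was slightly above the second arrays of the other groups. Mospd1 was at 9.77, 9.37 and 9.75 on the 2-g arrays, against 10.43, 9.87 and 10.26 on the μ-g arrays, 10.41, 10.01 and 10.11 on the 1-g arrays and 10.51, 9.70 and 10.18 on the control arrays. Mospd1, a membrane protein with a sperm-protein domain, also overlapped between groups, at its second control array. The others were the calcium buffer Calb2 (calretinin), Fam20c, the Golgi kinase that phosphorylates secreted proteins of bone matrix, the small GTPase Rab20, the microtubule protein Map1b, the tight junction protein Cldn12, Get1, which inserts tail-anchored proteins, Vac14, which scaffolds a phosphoinositide kinase, the ubiquitin ligase Rnf149, Paqr3, Dennd2d, Ttc27, Ttc39b, Wdr5b, D10Wsu102e and the transcribed pseudogene Gm8096, with margins of 0.30 to 0.44.

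**Figure D4:**
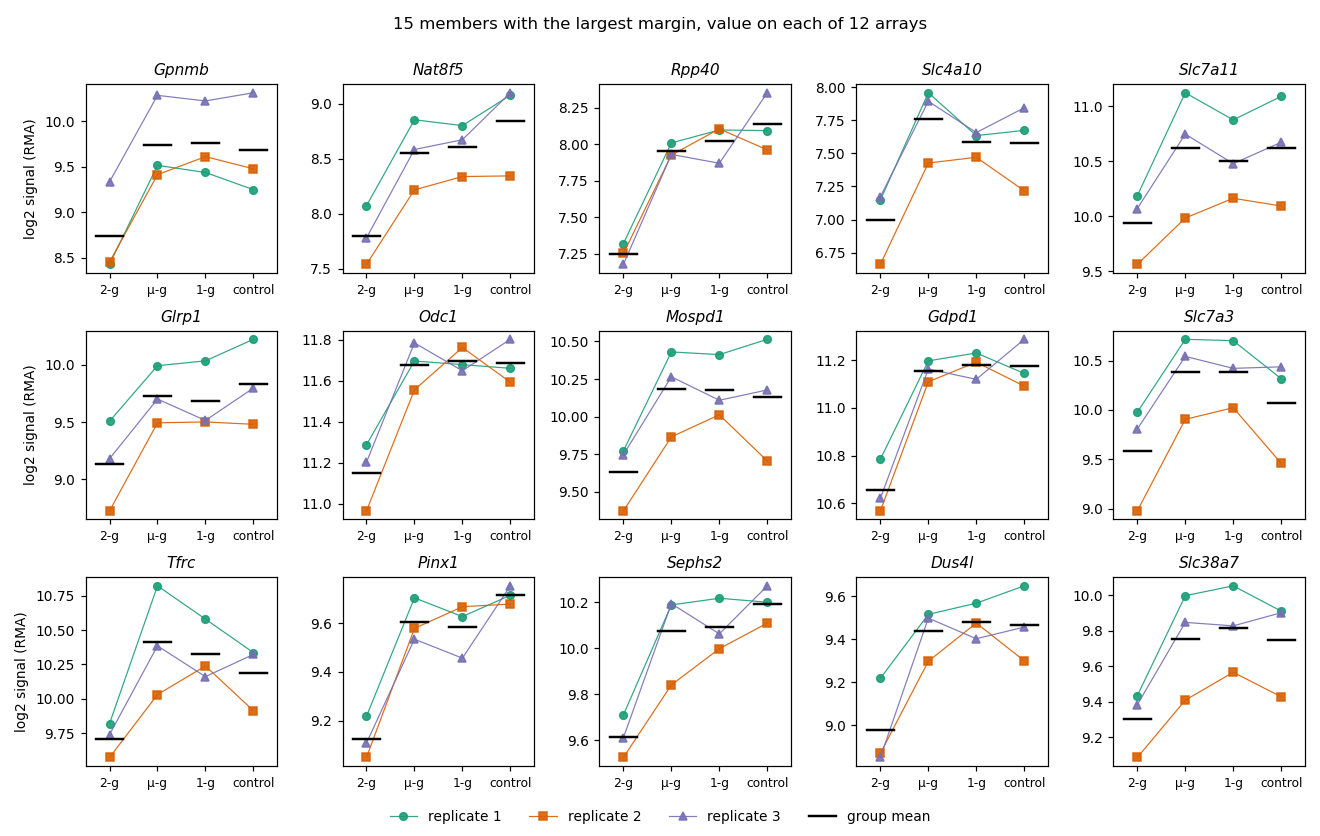
Log2 signal (y axes) on each of the 12 arrays for the 15 genes with the largest margin, by group (x axis), with 1 line for each replicate number and black bars for group means. On each line the 2-g array is the lowest, while the replicates keep their order in genes such as Gpnmb (the third array highest) and Slc7a3 (the second array lowest).

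The rule set 2-g against the other groups and left the order of μ-g, 1-g and control free. These 3 were compared with limma over all 19938 genes. The rule still used their means, since each had to lie above the 2-g mean by its limit. A gene as low in another group as in 2-g could not be chosen, which favours genes in which these 3 groups are alike. The calls and medians of the 121 genes are therefore a description and not an independent test. In μ-g v.s. control none of the 121 genes passed at adjusted p under 0.05, where 0.436% of all genes were higher and 0.386% lower. At an unadjusted p under 0.05, 3 were lower (Ccdc86, Cpm and Eif2b3), and the smallest adjusted p was 0.201. In 1-g v.s. control none passed, where 0.176% of all genes were higher and 0.145% lower. At an unadjusted p under 0.05, 1 was higher (Cd68) and 2 lower (Cpm and Eif2b3), and the smallest adjusted p was 0.378. In μ-g v.s. 1-g none passed, nor did any gene of the arrays (0% higher and 0% lower), and no gene of the 121 had an unadjusted p under 0.05.

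The medians over the 121 genes were -0.02 in μ-g v.s. control, -0.01 in 1-g v.s. control and 0.01 in μ-g v.s. 1-g, beside 0.02, 0.02 and 0.01 over all genes, with a median SE of a single gene of 0.10. Within 0.30 of 0 were 119, 119 and 121 genes. Lipg, the endothelial lipase, was the widest apart. The 2-g arrays gave 9.05, 9.09 and 9.52 for Lipg, where the μ-g arrays gave 9.84, 9.93 and 10.15, the 1-g arrays 9.86, 9.98 and 10.16 and the control arrays 9.41, 9.43 and 10.08. The difference was 0.34 ± 0.17 (SE) in μ-g v.s. control (limma, adjusted p = 0.423) and 0.36 ± 0.17 in 1-g v.s. control (limma, adjusted p = 0.487). With the replicate block it passed in μ-g v.s. control (limma, adjusted p = 0.0412) and not in 1-g v.s. control (limma, adjusted p = 0.0507). These 2 comparisons share the control arrays. In μ-g v.s. control r between same-numbered arrays ran from 0.0179 to 0.4846. The lowest was under the limit of 0.1 set here, so there the numbers were not taken to pair the samples. Over all groups the mean r was 0.34 for same-numbered arrays and -0.17 for others, so the limit does not show that pairing is absent.

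**Figure D5:**
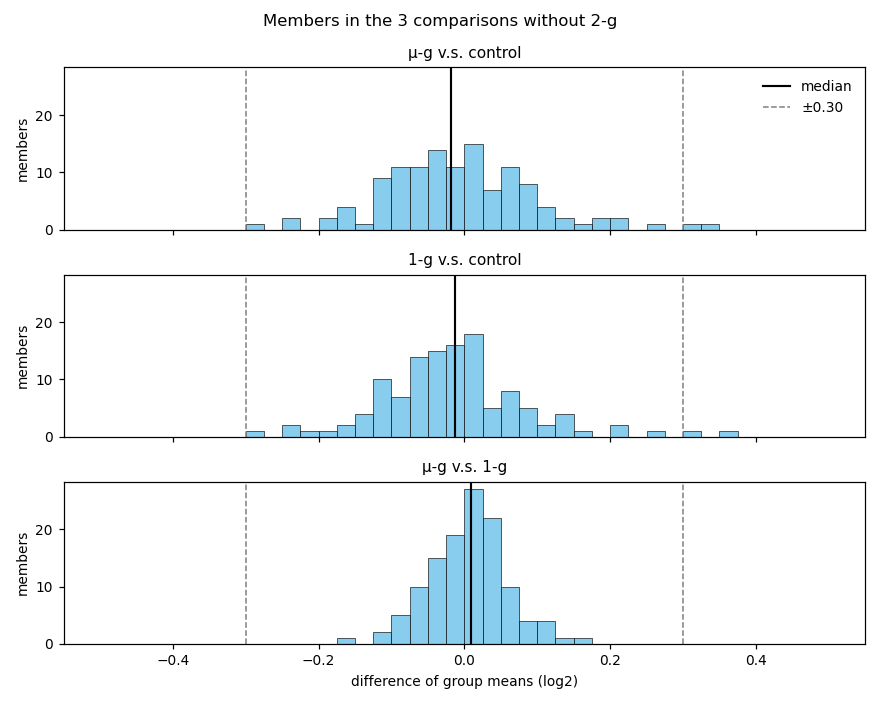
Number of the 121 genes (y axis) by difference of group means (x axis, log2) in μ-g and in 1-g, each v.s. control, and in μ-g v.s. 1-g. Solid lines are the medians of -0.02, -0.01 and 0.01, and dashed lines mark 0.30 on either side of 0, past which lie 2, 2 and 0 genes.

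The 10 lists of other pathways, chosen with earlier results of these data known, were set beside the 121 genes in 2-g v.s. control. Genes among the 121, and the 12 left out by name that met the rule, were chosen in part on this contrast and are not counted. Of the other 257 measured genes 5 fell and 11 rose in the limma test, against 1.43% of all genes lower and 1.68% higher. With the replicate block 24 fell and 31 rose, against 4.32% of all genes lower and 5.06% higher. Without the block, and with the chosen genes included, 21 passed. That count was 7, 2, 2 and 4 without the second 2-g array, the third 2-g array, the first control array and the third control array. Of 31 innate pattern receptors Clec4d fell, and with the block 2 fell and 2 rose. Clec4d was also named for leaving out, but it did not meet the rule and so stayed in this count. Of 30 NF-kB regulated genes outside cytokines, Nfkbib fell, and Bcl3 and Nos2 rose, and with the block 4 fell and 4 rose. Nos2 averaged 12.43 in 2-g and 12.11 in control, a difference of 0.32 ± 0.07 (SE, limma, adjusted p = 0.0361). Nos2 is the inducible nitric oxide synthase, brighter in 2-g than in the other groups. None of 20 lipid genes passed in limma (3 lower and 3 higher at an unadjusted p under 0.05), and with the block 2 fell and 3 rose. Of 20 granule proteases only Mcpt8 fell, or 2 with the block. Of 32 immediate early and MAPK feedback genes only Dusp5, a phosphatase of ERK, fell, while 2 fell and 3 rose with the block.

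On the extracellular matrix list 6 of 30 genes rose and none fell, against 1.68% of all genes higher. With the replicate block 14 rose, against 5.06% of all genes. The mean of Col3a1 was 9.10 in 2-g and 8.43 in control (0.67 ± 0.16, limma, adjusted p = 0.0437). Igsf10 averaged 7.93 in 2-g and 7.32 in control, a difference of 0.61 ± 0.12 (SE, limma, adjusted p = 0.0222). The mean of Col6a3 was 9.24 in 2-g and 8.65 in control (0.59 ± 0.11, limma, adjusted p = 0.0179). Col3a1 codes for a fibrillar and Col6a3 for a microfibrillar collagen chain, and Igsf10 is an immunoglobulin superfamily protein. The other 3 were Col1a1, Col6a1 and Col6a2. Of 25 interferon-stimulated genes Oas2 rose, and with the block 2 fell and 2 rose. Of 29 leukocyte receptors S1pr3 and Lpar6 rose and Cd53 fell. S1pr3 averaged 8.82 in 2-g and 8.10 in control, a difference of 0.72 ± 0.16 (SE, limma, adjusted p = 0.0338). S1pr3 is a receptor for sphingosine-1-phosphate. None of 19 prostaglandin and leukotriene enzymes passed in limma (1 lower and none higher at an unadjusted p under 0.05, and none with the replicate block).

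Promoters were searched for short motifs on both strands. RefSeq promoters of GRCm38.p6, from 250 bases before to 50 after the start site, were matched to 93 of the 121 genes, which gave 110 promoters. The E-box CACGTG, bound by MYC, USF and TFE factors, was in 17.3% of them, against 10.2% of the promoters of genes above 7 and 7.15% of all promoters. It was in 6 of the 26 promoters of the ribosome biogenesis genes. The C/EBP-ATF element TGATGNAA, which ATF4 dimers bind in genes of the amino acid response, was in 6.36% of them, against 2.19% and 3.97%. The antioxidant element TGACNNNGC was in 18.2%, against 14.2% and 12.4%. These 3 motifs were added after the 121 genes had been seen. The kappaB motif was in 6.36%, against 5.24% and 4.51%, the AP-1 site TGANTCA in 10%, against 4.93% and 7.81%, and the C/EBP site TTGCNNAA in 14.5%, against 8.01% and 10.8%. The CRE TGACGTCA was in 4.55%, against 3.07% and 1.79%, the ETS site GAGGAA in 31.8%, against 25.8% and 28.3%, the ISRE core (GAAA, any 2 bases, GAAA) in 2.73%, against 2.88% and 3.44%, the HRE ACGTG in 31.8%, against 26.1% and 19.6%, the CArG box in 2.73%, against 1.34% and 1.63%, and the TATA box TATAAA in 8.18%, against 6.92% and 13.6%. The CArG matches lay in 3 promoters of 1 gene, Cldn12, out of the 93 genes matched. Each E-box holds an HRE, the antioxidant element and the AP-1 site can share bases, and a match is a description and not a binding site.

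The E-boxes are shown for the 6 ribosome biogenesis genes that hold one, since this was the largest group, and for Sephs2 and Slc38a7 of the 15 genes with the largest margin. Capitals mark the motif, positions are those of its first base from the start site, and all strands are read 5′ to 3′.
Utp18 (chr11:93885767-93885813, minus strand, GRCm38.p6, position -20): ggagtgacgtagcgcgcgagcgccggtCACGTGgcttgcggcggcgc
Tex10 (chr4:48473451-48473476, minus strand, GRCm38.p6, position -3): gacctgcggtCACGTGagcgcggcga
Tsr1 (chr11:74898094-74898119, plus strand, GRCm38.p6, position 25): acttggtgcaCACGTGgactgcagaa
Ltv1 (chr10:13193094-13193119, minus strand, GRCm38.p6, position 29): cctgtggaccCACGTGtggagctgcc
Pno1 (chr11:17211540-17211562, minus strand, GRCm38.p6, position 38): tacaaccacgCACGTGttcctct
Ccdc86 (chr19:10949228-10949253, minus strand, GRCm38.p6, position 24): acagaggctaCACGTGagccatggat
Sephs2 (chr7:127274187-127274246, minus strand, GRCm38.p6, position -160): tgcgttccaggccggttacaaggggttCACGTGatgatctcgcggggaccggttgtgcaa
Slc38a7 (chr8:95853493-95853552, minus strand, GRCm38.p6, position -34): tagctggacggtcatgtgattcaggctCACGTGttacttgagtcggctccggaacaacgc

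The C/EBP-ATF elements are shown for Slc7a11, Chchd10 and Nlrp3, with 2 copies each in the first 2 genes, followed by the antioxidant element of Txnrd1 and the overlapping kappaB matches of Tlr2.
Slc7a11 (chr3:50443626-50443706, minus strand, GRCm38.p6, position -66 and -47): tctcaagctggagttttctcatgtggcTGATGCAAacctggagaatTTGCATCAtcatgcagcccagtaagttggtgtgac
Chchd10 (chr10:75933018-75933092, plus strand, GRCm38.p6, position -85 and -72): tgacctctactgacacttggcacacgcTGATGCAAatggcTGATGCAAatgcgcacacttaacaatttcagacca
Nlrp3 (chr11:59541464-59541525, plus strand, GRCm38.p6, position -78): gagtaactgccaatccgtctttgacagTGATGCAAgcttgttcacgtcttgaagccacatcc
Txnrd1 (chr10:82859087-82859149, plus strand, GRCm38.p6, position -92): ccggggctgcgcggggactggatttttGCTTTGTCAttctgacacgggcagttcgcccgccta
Tlr2 (chr3:83841744-83841808, minus strand, GRCm38.p6, position -173 and -172): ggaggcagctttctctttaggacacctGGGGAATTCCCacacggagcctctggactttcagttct

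Of the genes with 2 or more clusters of 1 symbol among the 121, Odc1, Ttc39b and Wdr12 had margins of 0.47, 0.40 and 0.43 on the second cluster and Fbxo31 of 0.20. On the chromosomes, Utp18 and Nme1, Slc15a3 and Ccdc86, Rrp12 and Exosc1, Eif2b3 and Plk3, and Nat8f5 and Nat8 lie within 100000 bases of each other. Chromosome 8 held 13 of the 121 genes (10.7%), against 5.52% of the genes above 7.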

How the data were processed

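Gene expression in MLO-Y4 cells was read from Affymetrix Mouse Gene 1.0 ST arrays, 3 for each of the 4 groups. The authors deposited log2 values after Robust Multi-chip Average (RMA) processing of 28856 transcript clusters, so background correction, normalization and summarisation are theirs. The medians of the 12 arrays were 7.04 to 7.12, and no 2 arrays held identical values. The 21789 clusters with 1 symbol gave 19938 genes. The brightest cluster was taken for the 999 genes with several.

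The genes described, their rule and the gene lists were chosen with earlier results of these data known. All genes chosen were named, and the 15 with the largest margin were given on every array. From each list up to 4 genes were given with values, those that passed the test first and by size. Group means of all clusters were fitted with lmFit and eBayes (limma 3.58.1, R 4.3.3), with 8 residual and 3.90 prior degrees of freedom, and p-values were adjusted by Benjamini and Hochberg over the 19938 genes. P-values measure only the spread between these samples, and an exact test of 3 arrays against 3 cannot go below 0.1.

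Replicate numbers recur in every group. Same-numbered arrays deviated together, with r above 0.1 for each pair in every comparison but μ-g v.s. control (lowest r = 0.0179). By these values, and by no stated source, the numbers were taken to pair the samples elsewhere. Arrays of different number had a mean r of -0.17, so the low value does not show that pairing is absent. The fit with the number as a block is printed where it matters for a call or a count. Other alternatives were centring, quantile normalization, the level limit, an intensity trend, the mean of several clusters, only 6 arrays in the fit, the methods' limits and each array left out. Promoters were read from RefSeq, and no array coordinates were used.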

Additional observations from a re-analysis of the deposited data

How the results depend on the processing

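The number of genes taken by the rule was 219 at a limit of 0.25 and 68 at 0.35, and it ran from 96 without the second 2-g array to 210 without the first. Of the 121 genes, 42 were taken whichever array was left out, and 95 were taken both after centring and after quantile normalization. No margin of the 15 leading genes changed sign or moved by more than the spread of its arrays in 240 recomputations. Those from same-numbered differences (replicate block) equal the main margins by construction and cannot test them. Leaving out an array of a group that was not the next lowest often changed nothing either. By arithmetic, leaving out an array also moves its group mean by less than the spread of that group. These recomputations could therefore hardly pass the spread, and that none did says little. Without the second 2-g array the margin of Slc7a3 fell from 0.4842 to 0.1791, under the limit of the rule. Over the 121 genes the smallest margin with an array left out was 0.1131. The calls of the 121 genes stayed at 0 in μ-g and 1-g, each v.s. control, and in μ-g v.s. 1-g when an array was left out. With the replicate block they were 1 in μ-g v.s. control, where the lowest r was under the limit set for pairing. The listed genes called in 2-g v.s. control (21, chosen genes included) were 66 with the replicate block, 4 with only these groups' 6 arrays fitted, 11 at an unadjusted P under 0.05 with a fold change over 1.5, and 2 to 28 when an array was left out. Ribosome biogenesis genes outside the 121 that fell in 2-g v.s. control (25), a list and alternatives chosen after seeing the data, were 54 with the replicate block, 3 in the fit of 6 arrays and 4 to 25 when an array was left out. The replicate block changed no other call of the 121 genes among μ-g, 1-g and control. The cause of these moves was not tested, apart from the fewer arrays of some fits. The number of arrays limits all values, and the median SE of a single gene among the 121 was 0.10 without the block in the comparisons of μ-g, 1-g and control.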
